A study of Arabidopsis thaliana with 12 samples.

Results

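The comparison set the response of Arabidopsis thaliana roots to an inducible Dof2.2 gene against the response to an inducible PEAR2 gene, gene by gene. For each gene the response of a line was its mean log2 signal on estriol arrays minus that on mock arrays, and the measure was the difference of responses, the Dof2.2 line's minus the PEAR2 line's. A difference below 0 means that a gene fell further, or rose less, with Dof2.2. It was computed from 8 of the 12 arrays of the study and for the 16548 genes that could be tied to exactly 1 gene of the platform annotation. The remaining 4 arrays come from a Dof1.1 line in another background, whose genotype is given as ER8Dof1.1/S32/Col. They entered the model for the spread between replicates and the quantile normalization behind every level compared between lines, and their own responses are set beside a few results as a description.

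The 2 lines compared carry the genotypes ER8Dof2.2/SUC2p::GFP-GUS and ER8PEAR2/SUC2p::GFP-GUS. ER8 is a vector in which an estrogen-activated transcription factor switches on the cloned gene, and SUC2p::GFP-GUS, which both lines share, drives a reporter from the promoter of the companion-cell sucrose transporter gene SUC2. Plants aged 68 h were kept for a further 16 h on plates without estriol (mock) or with 10 µM estriol, and RNA came from whole roots. Each line and treatment has 2 arrays, described as biological replicates. There is 1 genotype label per construct, so the construct, its insertion and the particular line cannot be told apart. No line without a Dof construct was treated with estriol, so a response of each line includes any effect of estriol itself, which the difference of responses removes where it is equal in both lines. The labels do not say how many plants or separate cultures stand behind an array, and the p-values measure the spread between these arrays.

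Dof proteins are plant transcription factors with a single zinc finger that bind short AAAG-type sites. Several are made in the early phloem, and the PEAR members of the family move from the protophloem sieve element into neighbouring procambial cells and promote the divisions that build the vascular cylinder. Whole roots also hold epidermis with root hairs, cortex, endodermis and root cap. In such bulk samples fewer cells of a type and less RNA per cell cannot be told apart.

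The induced genes were read first, since they check the labels. RefSeq lists them by locus only, and the names Dof2.2 for AT2G28810 and PEAR2 for AT5G02460 are common usage. PEAR2 read 5.71 and 6.08 under mock and 6.03 and 6.02 under estriol with Dof2.2, whereas with PEAR2 it read 7.92 and 7.81 under mock and 12.25 and 12.24 under estriol. PEAR2 thus rose 20.8-fold in its own line, where it passed the test, and its response in the Dof2.2 line was 0.13 (adjusted p = 0.698), a difference of -4.25 ± 0.29 (adjusted p = 9.58e-05). With Dof2.2 the DOF2.2 signal stood at 5.39 and 5.91 under mock and 8.36 and 9.01 under estriol, compared with 6.47 and 6.95 under mock and 8.85 and 8.65 under estriol with PEAR2. DOF2.2 therefore rose in both lines, 8.2-fold with Dof2.2 (adjusted p = 1.81e-05) and 4.11-fold with PEAR2 (adjusted p = 0.000486). Its difference was 1.0 ± 0.39 (adjusted p = 0.339), with a 95% interval of 0.13 to 1.86. The DOF2.2 response of the Dof1.1 line was 2.99, so the rise of this gene did not set its own line apart, and of the 2 labels only that of the PEAR2 line could be checked in this way. An array signal does not separate the transcript of the construct from that of the native gene. How much of each protein was made was not measured, so the identity of the construct and the strength of its induction cannot be told apart.

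The arrays of a group correlated at 0.988 to 0.995 over all entries. Array medians lay between 5.41 and 5.58 for Dof2.2 arrays but between 6.48 and 6.57 for PEAR2 arrays, so the table was not brought to a common distribution between lines, and levels are compared between lines only after quantile normalization over all arrays. Signals carry no detection call, and a group mean is called dim below when it lies below the lower quartile of all entries of that group (under 2.93 to 2.99 in the Dof2.2 line and under 3.99 to 4.04 in the PEAR2 line). A fold that starts or ends at a dim level may be compressed. A gene is called measured here when an entry was tied to exactly 1 gene, and 11861 of 28583 entries were not tied so. A gene not measured in this sense may still be on the array, and shares of a family cover its measured genes only. Of 14 root hair markers listed, only EXPA7 and EXPA18 were measured. Of 16 phloem markers only OPS and SWEET11 were, and of 10 endodermis markers only AT1G61590. All of them lay above the dim limit in mock roots.

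Both lines responded in many genes, and the difference of their responses passed for few. In the Dof2.2 line 4704 of 16548 genes (28.4%) passed an adjusted p of 0.05, of which 2452 rose (14.8%) and 2252 fell (13.6%). The PEAR2 line had 3105 (18.8%), with 1378 higher (8.33%) and 1727 lower (10.4%). The order of the lines by this count turned with array weights, which gave 4250 genes with Dof2.2 and 4469 with PEAR2. The difference of responses passed for 275 genes (1.66%), 50 above 0 (0.302%) and 225 below 0 (1.36%), so 81.8% of the calls lay on the side where the Dof2.2 line went lower. Responses of the 2 lines, taken as the 4 array pairs within each, were fully separate for all 275, beside 26.5% of all genes (14.9% higher and 11.6% lower with Dof2.2). Mock and estriol arrays themselves did not overlap for 61.3% of genes with Dof2.2 and 61.8% with PEAR2. A difference of at least 2-fold was seen in 272 of the 275 (1.64% of genes), 48 higher and 224 lower.

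The median 95% interval of a difference reached 0.627 to either side on the log2 scale, and the smallest difference called was 0.88 in size, so smaller differences were mostly not detectable with 2 arrays a group. The number of calls rests on the PEAR2 arrays more than on the others. It was 111 without PEAR2 mock array 1 (11 higher, 100 lower), 144 without mock array 2 (21 higher, 123 lower), 151 without estriol array 1 (19 higher, 132 lower) and 126 without estriol array 2 (14 higher, 112 lower). Leaving out Dof2.2 mock array 2 gave 33 higher and 167 lower genes, and leaving out Dof2.2 estriol array 2 gave 28 and 164. The 275 calls come from a fit that does not pair arrays. With arrays paired within a line (the within-line block), the fit of all 12 arrays called 229 genes, 171 of the 275 among them. A fit of the 8 arrays alone with arrays paired within a line called 36 genes, all of them lower with Dof2.2, and 35 of these were among the 275. Among the genes named here, PEAR2, AT2G19802, AT3G30280, AGL90, AT3G46570, AT1G51840, AT2G36690, GH9C1, LCR16, EXPA18 and UGT72E1 kept their call in that fit. Genes that lost it there included EXPA7 (adjusted p = 0.0559), CLE14 (adjusted p = 0.0601) and AT1G74130 (adjusted p = 0.0721). PRN2 (adjusted p = 0.08), EXPA8 (adjusted p = 0.0805) and LCR42 (adjusted p = 0.0967) lost it as well. Every one of the 275 kept the sign of its difference in each setting in which it was tested, but most settings could not have turned it. Blocks, moderation and the fit of the 8 arrays leave the estimate as it was. Responses that do not overlap keep their order when any 1 array is left out. The kept sign is therefore no measure of how firm the calls are.

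**Figure D1:**
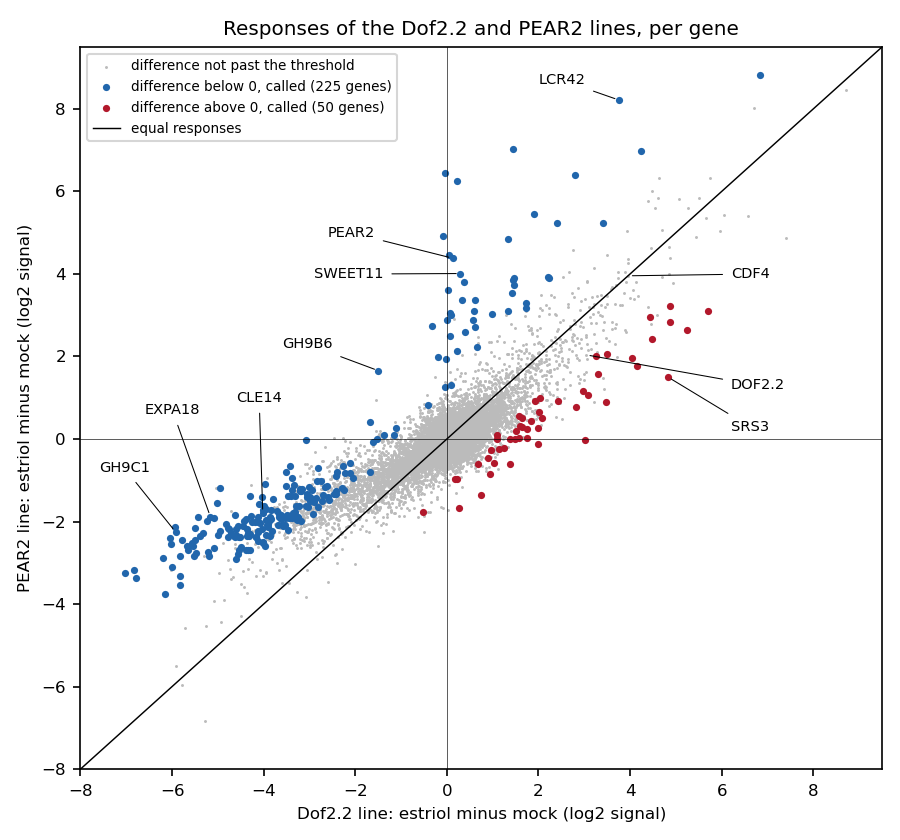
Each point is 1 of 16548 genes, with its response in the Dof2.2 line (estriol minus mock, mean log2 signal of 2 arrays each) on the horizontal axis and its response in the PEAR2 line on the vertical axis. Blue points are the 225 genes whose difference was called below 0, red points the 50 called above 0, grey points the rest, and the diagonal marks equal responses. The blue points lie in a cloud of genes that fell in both lines and in a column of genes near 0 in the Dof2.2 line that rose with PEAR2.

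The lower calls fell into 2 large kinds. In 166 of the 225 (73.8%) both lines fell past the threshold and the Dof2.2 line fell further, with median responses of -4.02 and -1.99. In 25 (11.1%) the gene rose with PEAR2 (median 3.01) and did not pass in the Dof2.2 line (median 0.08). A further 20 rose in both lines, less so with Dof2.2 (medians 1.72 and 3.92). In 13 the fall passed in the Dof2.2 line alone, and 1 gene, GH9B6, went opposite ways. The 50 higher calls held 21 genes that rose in both lines (medians 3.47 and 1.59), 21 called as rising in the Dof2.2 line alone (1.57 and 0.03), 4 that went opposite ways, 3 that fell with PEAR2 alone and 1 that fell in both. A fall called in 1 line and not in the other is seldom a shown difference, since 743 genes were called lower in the Dof2.2 line and not in the PEAR2 line and 13 of them passed the test of the difference.

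The falls differed in depth as a body. Of the 1508 genes that fell in both lines, 83.8% had a difference below 0, the median responses were -1.85 with Dof2.2 and -1.33 with PEAR2, and 166 were called lower against 1 called higher. The 1106 genes that rose in both lines had medians of 1.19 and 1.01, 64.6% had a difference above 0, and the calls were nearly even, 20 lower and 21 higher. Ordered by the mean of both responses, the genes below -3 had a median difference of -1.96 and 55.6% of 151 were called lower. From -3 to -2 the median difference was -1.17 (17.5% of 395 genes called lower), and from -2 to -1 it was -0.52 (2.18% of 917). Among the 14361 genes between -1 and 1 the median was 0.08 and 0.0836% were called lower. On the rising side the medians were 0.20 (475 genes from 1 to 2), 0.19 (144 genes from 2 to 3) and 0.01 (105 genes above 3), and in that last range 12.4% were called lower and 7.62% higher. After quantile normalization over all arrays the same medians ran from -1.73 below -3 to -0.25 above 3, so the sign of the last one depended on the scaling. Across all genes the responses had an SD of 0.999 with Dof2.2 and 0.767 with PEAR2, and they correlated across genes at a Pearson r of 0.846 and a Spearman rho of 0.726 (genes are not independent replicates, and the 2 lines have separate mock arrays).

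**Figure D2:**
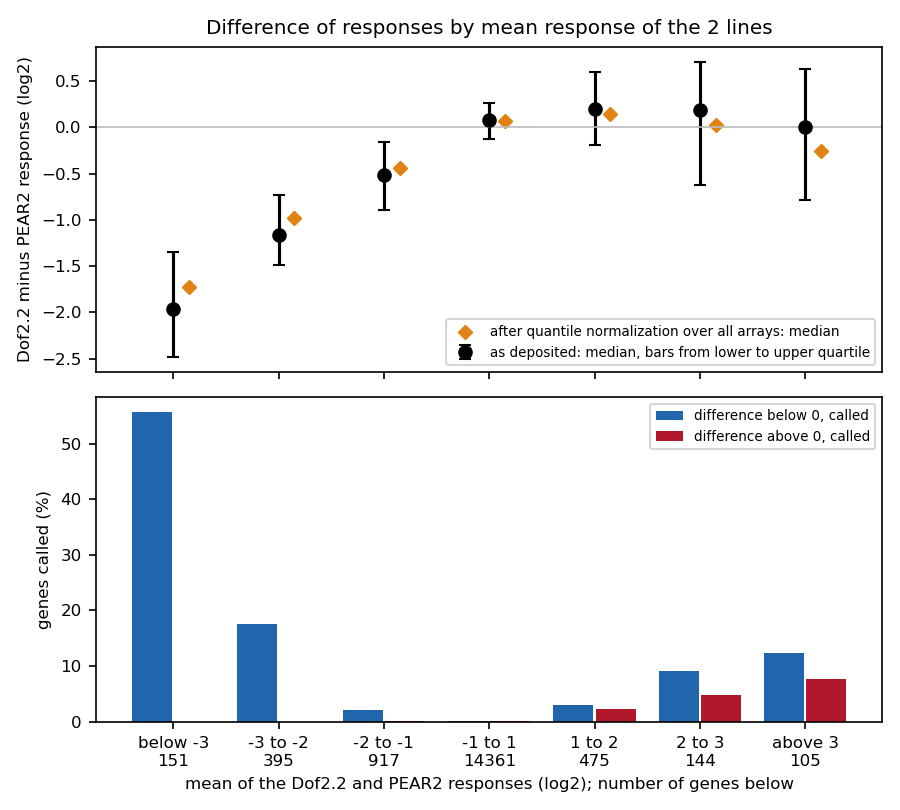
Genes are grouped on the horizontal axis by the mean of their responses in both lines (log2, from below -3 to above 3). The upper panel shows the difference of responses, Dof2.2 minus PEAR2 (log2), as the median with bars from the lower to the upper quartile over the genes of each range, and orange points give the median after quantile normalization. The lower panel shows the percent of these genes called below 0 (blue) or above 0 (red). The median runs from -1.96 in the deepest falls to between 0.01 and 0.20 in the rises.

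Genes of the growing cell wall were among the deep falls. Expansins loosen cell walls during growth, and EXPA7 and EXPA18 are known from root hair cells. EXPA18 read 10.48 and 10.57 under mock and 5.53 and 5.19 under estriol with Dof2.2, whereas with PEAR2 it read 11.03 and 11.07 under mock and 9.15 and 9.19 under estriol. The estriol arrays of the Dof2.2 line lay lowest, with no overlap between any of the groups of a line, and its responses were -5.17 and -1.88, a difference of -3.29 ± 0.22 (adjusted p = 9.58e-05). With Dof2.2 the EXPA7 signal stood at 9.41 and 9.13 under mock and 4.83 and 4.94 under estriol, compared with 9.67 and 9.62 under mock and 7.65 and 7.76 under estriol with PEAR2. EXPA7 had responses of -4.39 and -1.94, a difference of -2.45 ± 0.26 (adjusted p = 0.00196), and for EXPA8 the responses were -3.32 and -1.38, a difference of -1.94 ± 0.26 (adjusted p = 0.00567). These were the 3 called among 24 expansins measured (12.5%, beside 1.66% of all genes), all lower with Dof2.2. The median difference of the 24 was 0.003, beside 0.05 for all genes, and EXPB1 (-2.93 and -1.7) had a difference of -1.23 ± 0.34 (adjusted p = 0.145). EXPA4 (1.86 and 1.12) lay on the other side, with a difference of 0.74 ± 0.27 (adjusted p = 0.292). All 3 calls held without any 1 array and with the within-line block. After quantile normalization over all arrays, the Dof2.2 minus PEAR2 level of EXPA8 was 0.928 in mock roots (adjusted p = 0.0252). On estriol it was -0.775 (adjusted p = 0.021), so the difference of EXPA8 also holds a difference between mock roots. AT1G61590, the 1 endodermis marker measured, also fell in both lines (-3.09 and -1.5). Its difference was -1.6 ± 0.37 (adjusted p = 0.0684), and it passed with trended robust moderation (adjusted p = 0.0251), with array weights (adjusted p = 0.0394) and without Dof2.2 estriol array 1 (adjusted p = 0.00542). The part of root hair or endodermis cells in these results was not tested.

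The glycosyl hydrolase 9 family holds endoglucanases that act on cellulose-type glucans. Mock arrays gave GH9C1 signals of 9.89 and 9.78 with Dof2.2 and 10.48 and 10.66 with PEAR2, while estriol arrays gave 3.81 and 4.01 with Dof2.2 and 8.17 and 8.47 with PEAR2. It fell in both lines, and its responses were -5.93 and -2.25, a difference of -3.68 ± 0.27 (adjusted p = 0.000146). GH9B6 was the one gene with a fall called in the Dof2.2 line and a rise called in the PEAR2 line. With Dof2.2 the GH9B6 signal stood at 5.4 and 5.65 under mock and 4.32 and 3.74 under estriol, compared with 6.7 and 6.9 under mock and 8.21 and 8.7 under estriol with PEAR2. Its 2 responses were -1.5 (adjusted p = 0.00601) and 1.66 (adjusted p = 0.00513), and the difference was -3.15 ± 0.46 (adjusted p = 0.00781). GH9B6 lost its call with the within-line block (adjusted p = 0.0656). Of 19 GH9 genes these 2 were called (10.5%), and the median difference of the family was -0.19.

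**Figure D3:**
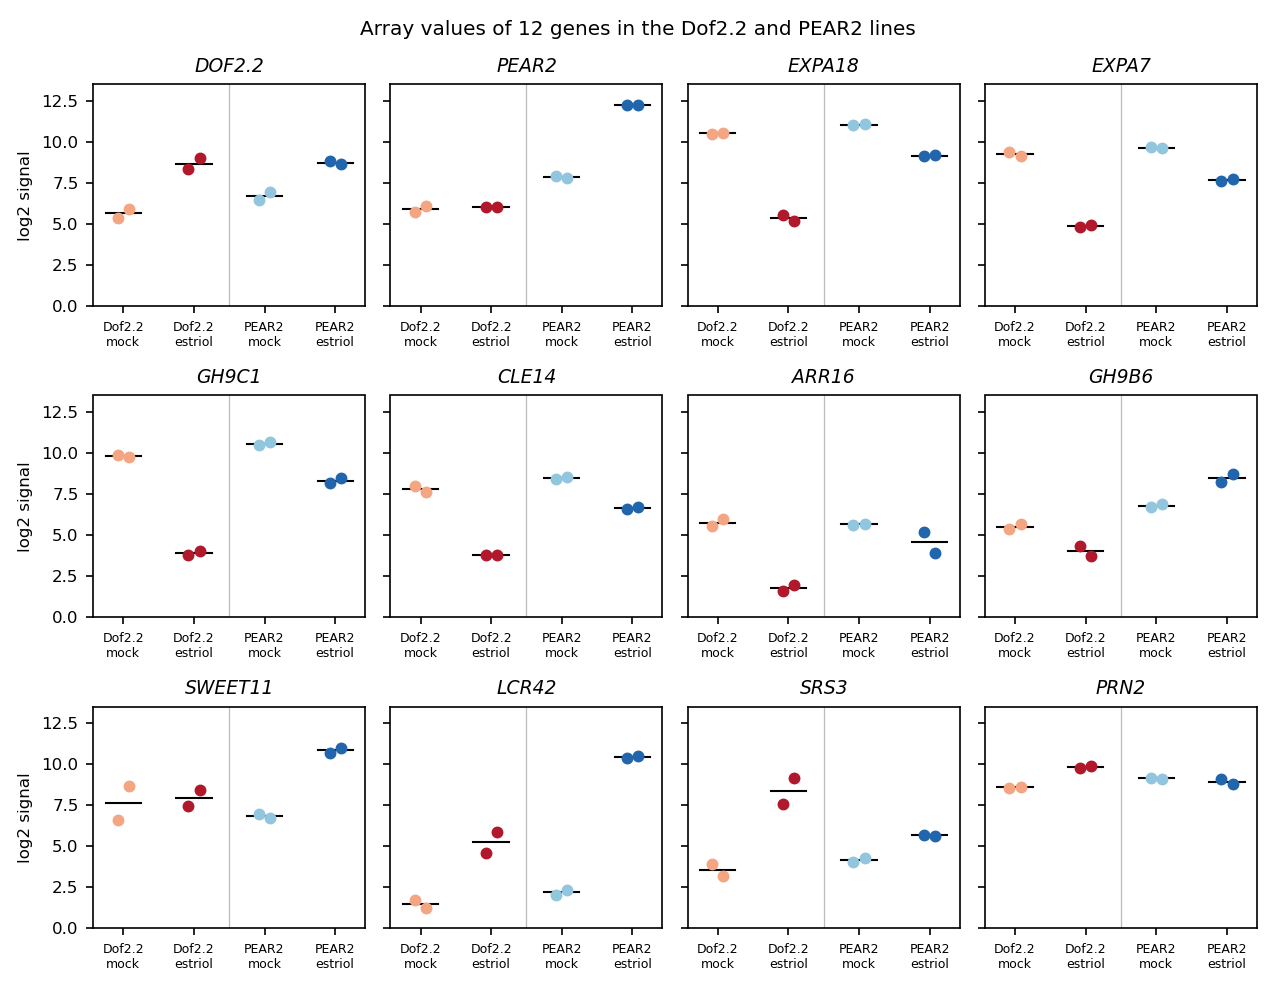
Log2 signal (vertical axis) of 12 genes, 1 panel a gene, in the mock and estriol groups of the Dof2.2 and PEAR2 lines along the horizontal axis. Points are single arrays and black lines group means. EXPA18 and GH9C1 drop in both lines and drop further with Dof2.2, while PEAR2 goes up in its own line and stays near 6.03 in the other.

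Among signalling genes CLE14, which encodes a peptide of the CLE family, was the called one of 17 measured (5.88%). CLE14 read 8.01 and 7.6 under mock and 3.8 and 3.77 under estriol with Dof2.2, whereas with PEAR2 it read 8.41 and 8.52 under mock and 6.59 and 6.74 under estriol. It fell in both lines, and its responses were -4.02 and -1.8, a difference of -2.22 ± 0.3 (adjusted p = 0.00572). CLE41 and CLE44, which encode the TDIF peptide that keeps vascular stem cells undifferentiated, and the related CLE42 rose in both lines. CLE41 had responses of 3.21 and 3.26 and a difference of -0.06 (95% interval -0.79 to 0.68). For CLE42 the difference was -0.14 (95% interval -0.99 to 0.71) and for CLE44 it was -0.4 (95% interval -1.0 to 0.21). CLE25, a phloem peptide gene, rose by 2.54 and 2.35, a difference of 0.19 (95% interval -0.28 to 0.65). CLE20 had responses of 1.06 and -0.03 and a difference of 1.09 ± 0.28 (adjusted p = 0.106) that missed the threshold. OPS, which acts in protophloem differentiation, had a difference of 0.09 (95% interval -0.4 to 0.57), and the vascular regulators PHV, LHW and MOL1 had 0.25 (95% interval -0.26 to 0.76), 0.23 (95% interval -0.28 to 0.74) and -0.47 (95% interval -1.02 to 0.08). All 4 rose in both lines, and the adjusted p of their differences ran from 0.53 to 0.952.

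The few hormone genes called lay on the lower side, where 81.8% of all calls lay. IAA31 fell in both lines, while the falls of ARR16 and GH3.5 passed in the Dof2.2 line alone. With Dof2.2 the ARR16 signal stood at 5.58 and 5.96 under mock and 1.61 and 1.99 under estriol, compared with 5.63 and 5.68 under mock and 5.18 and 3.94 under estriol with PEAR2. ARR16 is a type-A response regulator of cytokinin signalling. The 2 PEAR2 estriol arrays were far apart, both under the mock arrays of that line, and the PEAR2 response did not pass (adjusted p = 0.0734). The difference was -2.88 ± 0.53 (adjusted p = 0.0265), and the Dof2.2 estriol level was dim. It was the 1 called of 2 type-A response regulators measured (50%). The other, ARR15, had responses of -0.88 and 0.54, neither of which passed, and a difference of -1.42 (95% interval -3.51 to 0.68). GH3.5, an enzyme that conjugates auxin to amino acids, fell with Dof2.2 (-1.62) and had a response of -0.07 with PEAR2, a difference of -1.55 ± 0.29 (adjusted p = 0.0262). IAA31, an Aux/IAA protein, fell in both lines (-2.7 and -1.36), with a difference of -1.34 ± 0.25 (adjusted p = 0.0272). These were 2 of 16 auxin genes called (12.5%, median difference -0.26). GH3.3 had a larger difference with a wider error, -2.23 ± 0.52 (adjusted p = 0.0711), and GH3.1 had -1.05 ± 0.24 (adjusted p = 0.0685). GH3.3 passed with trended robust moderation (adjusted p = 0.0379), with array weights (adjusted p = 0.0346) and in a fit of the 8 arrays (adjusted p = 0.0198). GH3.1 passed without the genes of lowest signal (adjusted p = 0.046), with trended robust moderation (adjusted p = 0.0477) and with the within-line block (adjusted p = 0.0466). ARR16 lost its call without Dof2.2 mock array 2, estriol array 1, estriol array 2, PEAR2 mock array 1, mock array 2 or estriol array 1 (adjusted p 0.0502 to 0.11), in a fit of the 8 arrays (adjusted p = 0.0613) and with the within-line block (adjusted p = 0.0669). GH3.5 lost its call without Dof2.2 mock array 2, estriol array 1, estriol array 2 or any 1 PEAR2 array (adjusted p 0.0613 to 0.134), after quantile normalization (adjusted p = 0.0505) and with the within-line block (adjusted p = 0.0738). IAA31 lost its call without Dof2.2 mock array 1, mock array 2, estriol array 1, PEAR2 mock array 1, estriol array 1 or estriol array 2 (adjusted p 0.0505 to 0.138), after quantile normalization (adjusted p = 0.0804) and in a fit of the 8 arrays (adjusted p = 0.0721).

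The few calls in the lists of sugar and nitrate transporters lay on the lower side, as did 81.8% of all 275 calls. They show no direction particular to these lists. Among all genes 1.66% were called. SWEET proteins carry sugars across membranes, and 2 of 16 were called (12.5%, median difference -0.84). Mock arrays gave SWEET11 signals of 6.57 and 8.68 with Dof2.2 and 6.96 and 6.69 with PEAR2, while estriol arrays gave 7.42 and 8.42 with Dof2.2 and 10.69 and 10.98 with PEAR2. SWEET11, which exports sucrose to the phloem in leaves, thus rose with PEAR2 (4.01, adjusted p = 0.000583) and its 2 mock arrays in the Dof2.2 line lay far apart, on either side of both estriol arrays there. Its difference was -3.72 ± 0.78 (adjusted p = 0.0482). SWEET16, a vacuolar sugar transporter, fell in both lines (-4.13 and -2.48), with a difference of -1.66 ± 0.32 (adjusted p = 0.0307). SWEET2 did not pass, with -1.71 ± 0.41 (adjusted p = 0.0844), but did so with trended robust moderation (adjusted p = 0.0404) and without Dof2.2 mock array 1 (adjusted p = 0.0321). NAXT1, a nitrate excretion transporter, was the 1 called of 14 nitrate and NPF transporter genes (7.14%), with responses of -3.69 and -2.09 and a difference of -1.6 ± 0.24 (adjusted p = 0.00974). SWEET11 lost its call without Dof2.2 estriol array 1, estriol array 2 or any 1 PEAR2 array (adjusted p 0.055 to 0.166), in a fit of the 8 arrays (adjusted p = 0.139) and among all entries (adjusted p = 0.0527). SWEET16 lost its call without any 1 Dof2.2 array, PEAR2 mock array 1, mock array 2 or estriol array 2 (adjusted p 0.0527 to 0.129), after quantile normalization (adjusted p = 0.0943), in a fit of the 8 arrays (adjusted p = 0.0504) and with the within-line block (adjusted p = 0.113). NAXT1 lost its call without PEAR2 mock array 1 or estriol array 2 (adjusted p 0.057 to 0.0638).

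UDP-glycosyltransferases, which attach sugars to small molecules, gave 3 calls among 55 measured (5.45%), all genes that fell in both lines. With Dof2.2 the UGT72E1 signal stood at 8.85 and 7.67 under mock and 3.38 and 2.66 under estriol, compared with 9.09 and 9.48 under mock and 7.08 and 7.52 under estriol with PEAR2. The largest of the 3 differences was that of UGT72E1, -3.26 ± 0.52 (adjusted p = 0.012). UGT73D1 fell by 4.03 and 2.5, a difference of -1.53 ± 0.2 (adjusted p = 0.00549), and UGT71C1 fell by 3.28 and 1.98, a difference of -1.3 ± 0.21 (adjusted p = 0.0131). The Dof2.2 estriol level of UGT73D1 was dim. After quantile normalization over all arrays, the Dof2.2 minus PEAR2 level of UGT71C1 was 1.018 in mock roots (adjusted p = 0.0117). On estriol it was -0.105 (adjusted p = 0.691). GSTU22, 1 of 14 glutathione transferases (7.14%), had responses of -4.12 and -2.22 and a difference of -1.9 ± 0.23 (adjusted p = 0.00351). SCPL28, 1 of 32 serine carboxypeptidase-like genes (3.12%), had -5.09 and -1.93 and a difference of -3.17 ± 0.62 (adjusted p = 0.0357). Its 2 Dof2.2 estriol arrays read 6.67 and 4.84. UGT72E1 lost its call without PEAR2 mock array 1 or estriol array 2 (adjusted p 0.0616 to 0.0687) and in a fit of the 8 arrays (adjusted p = 0.0549). UGT71C1 lost its call without PEAR2 mock array 1, mock array 2 or estriol array 2 (adjusted p 0.0578 to 0.074), after quantile normalization (adjusted p = 0.0537) and with the within-line block (adjusted p = 0.0502). SCPL28 lost its call without Dof2.2 mock array 2 or any 1 PEAR2 array (adjusted p 0.109 to 0.135), in a fit of the 8 arrays (adjusted p = 0.116), with the replicate number as a block (adjusted p = 0.0516) and with the within-line block (adjusted p = 0.117).

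Among calmodulin-binding IQ-domain genes and among pirins the calls lay on both sides. Of 17 IQ-domain genes, IQD19 and IQD20 fell further with Dof2.2 and IQD15 rose further (17.6% called, median difference 0.05). The responses were -4.04 and -2.18 for IQD19, a difference of -1.86 ± 0.37 (adjusted p = 0.0355). IQD20 had -2.72 and -1.52, a difference of -1.21 ± 0.21 (adjusted p = 0.0183). After quantile normalization over all arrays, its Dof2.2 minus PEAR2 level was 0.806 in mock roots (adjusted p = 0.0174). On estriol that level was -0.235 (adjusted p = 0.293). IQD15 rose by 3.49 and 2.07, a difference of 1.42 ± 0.29 (adjusted p = 0.04). Of 4 pirins, 1 was called higher with Dof2.2, 1 lower, and 2 did not pass (50% called, median difference 0.72). With Dof2.2 the PRN1 signal stood at 10.68 and 10.76 under mock and 6.5 and 5.74 under estriol, compared with 10.78 and 11.03 under mock and 8.38 and 8.76 under estriol with PEAR2. PRN1, a pirin, is a cupin-fold protein, and its difference was -2.27 ± 0.36 (adjusted p = 0.0121). With Dof2.2 the PRN2 signal stood at 8.53 and 8.63 under mock and 9.78 and 9.86 under estriol, compared with 9.16 and 9.11 under mock and 9.09 and 8.76 under estriol with PEAR2. PRN2 thus rose with Dof2.2 (1.24) and had a response of -0.21 with PEAR2, a difference of 1.45 ± 0.21 (adjusted p = 0.00754), and it kept its call without any 1 array. IQD19 lost its call without any 1 Dof2.2 array, PEAR2 mock array 1, mock array 2 or estriol array 2 (adjusted p 0.0714 to 0.139) and after quantile normalization (adjusted p = 0.0875). IQD20 lost its call without Dof2.2 estriol array 2, PEAR2 mock array 1, mock array 2 or estriol array 2 (adjusted p 0.0608 to 0.102). IQD15 lost its call without any 1 of the 8 arrays (adjusted p 0.0543 to 0.181), after quantile normalization (adjusted p = 0.0768), in a fit of the 8 arrays (adjusted p = 0.0534), with the replicate number as a block (adjusted p = 0.0553) and with the within-line block (adjusted p = 0.0813). PRN1 lost its call without PEAR2 mock array 1 or estriol array 2 (adjusted p 0.0631 to 0.0712).

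Of the genes known by locus only that fell in both lines, AT1G51840, AT1G05660 and AT2G36690 had the largest differences, though not all had the deepest falls. AT2G36690 read 8.97 and 8.42 under mock and 3.84 and 3.65 under estriol with Dof2.2, whereas with PEAR2 it read 10.05 and 10.04 under mock and 8.81 and 8.9 under estriol. The gene fell by 1.19 with PEAR2 and by 4.95 with Dof2.2, a difference of -3.76 ± 0.26 (adjusted p = 9.58e-05). Mock arrays gave AT1G51840 signals of 8.75 and 9.06 with Dof2.2 and 10.2 and 10.12 with PEAR2, while estriol arrays gave 2.94 and 2.99 with Dof2.2 and 7.98 and 8.06 with PEAR2. Its difference was -3.8 ± 0.4 (adjusted p = 0.00176). AT1G05660 fell by 7.02 with Dof2.2 and by 3.26 with PEAR2, a difference of -3.77 ± 0.59 (adjusted p = 0.0113). AT1G05660 lost its call without PEAR2 mock array 1 or estriol array 2 (adjusted p 0.0575 to 0.0638) and in a fit of the 8 arrays (adjusted p = 0.0509). Called genes that are neighbours among the tested genes and lie on the same side formed 10 runs of 22 genes, 9 of them lower. The longest run was AT1G51830, AT1G51840, AT1G51850 and AT1G51860 on chromosome 1, in the gene order of the TAIR10.1 RefSeq annotation. Neighbouring genes can be near-identical copies that share probes, which was not tested.

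Genes that rose with PEAR2 and less or not at all with Dof2.2 gave the largest differences of all. AT2G19802 read 1.0 and 1.08 under mock and 1.0 and 1.0 under estriol with Dof2.2, whereas with PEAR2 it read 1.35 and 0.89 under mock and 7.53 and 7.61 under estriol. Both Dof2.2 groups and the PEAR2 mock group were dim, and the difference was -6.49 ± 0.28 (adjusted p = 1.02e-05). AGL90, a MADS-domain factor of the AGAMOUS-like family, behaved alike. With Dof2.2 the AGL90 signal stood at 1.88 and 1.55 under mock and 1.66 and 1.62 under estriol, compared with 1.43 and 1.58 under mock and 6.07 and 6.79 under estriol with PEAR2. Its difference was -5.0 ± 0.46 (adjusted p = 0.000749). AT3G30280 rose by 6.25 with PEAR2 and had a response of 0.23 with Dof2.2, a difference of -6.03 ± 0.47 (adjusted p = 0.000229). AT3G46570 did so by 4.45 against 0.06, a difference of -4.4 ± 0.29 (adjusted p = 9.58e-05). AGL62, a MADS factor known from endosperm, had 2.14 against 0.23, a difference of -1.92 ± 0.29 (adjusted p = 0.00965). After quantile normalization over all arrays its Dof2.2 minus PEAR2 level in mock roots was already -1.82 (adjusted p = 0.00396). These 2 were called among 67 AGAMOUS-like genes (2.99%), of which 43 were dim in all 4 groups. Of the 25 genes of this kind, 18 were dim in mock roots of each line, and 16 stayed dim on estriol in the Dof2.2 line. AT3G30280 was dim in mock roots of both lines and AT3G46570 in PEAR2 mock roots. AGL62 was dim in both Dof2.2 groups, and AGL90 in all groups but the PEAR2 estriol one. AGL62 lost its call without PEAR2 mock array 2 (adjusted p = 0.0504).

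Among cysteine-rich defensin-like peptide genes of the LCR and SCRL groups, 3 of 79 were called (3.8%), all lower with Dof2.2, and 56 of the 79 were dim in all 4 groups. LCR42 read 1.73 and 1.24 under mock and 4.6 and 5.88 under estriol with Dof2.2, whereas with PEAR2 it read 2.03 and 2.35 under mock and 10.35 and 10.46 under estriol. LCR42 rose in both lines, and its responses were 3.76 and 8.22, a difference of -4.46 ± 0.49 (adjusted p = 0.00226). With Dof2.2 the LCR16 signal stood at 1.67 and 1.44 under mock and 1.75 and 1.4 under estriol, compared with 2.31 and 2.41 under mock and 6.06 and 5.88 under estriol with PEAR2. For LCR16 the difference was -3.59 ± 0.23 (adjusted p = 9.58e-05). LCR84 rose by 1.42 and 3.55, a difference of -2.13 ± 0.45 (adjusted p = 0.0495). AT3G42830, known by locus only, rose by 1.44 with Dof2.2 and by 7.04 with PEAR2, a difference of -5.6 ± 0.59 (adjusted p = 0.0018). AT3G42830, LCR42 and LCR84 were dim in mock roots of both lines, and LCR16 in all groups but the PEAR2 estriol one. LCR84 lost its call without Dof2.2 mock array 1, mock array 2, estriol array 1 or any 1 PEAR2 array (adjusted p 0.0562 to 0.202), after quantile normalization (adjusted p = 0.101), in a fit of the 8 arrays (adjusted p = 0.104) and among all entries (adjusted p = 0.0525).

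Of 14 Dof genes measured, 2 were called in the difference (14.3%), the PEAR2 gene itself and DOF1.3, both lower with Dof2.2. Mock arrays gave DOF1.3 signals of 4.19 and 3.66 with Dof2.2 and 4.1 and 3.96 with PEAR2, while estriol arrays gave 7.39 and 7.29 with Dof2.2 and 9.1 and 9.43 with PEAR2. DOF1.3 rose in both lines, and its responses were 3.42 and 5.24, a difference of -1.82 ± 0.34 (adjusted p = 0.0285). Its PEAR2 mock level was dim. After quantile normalization over all arrays, its Dof2.2 minus PEAR2 level was 0.93 in mock roots (adjusted p = 0.0421). On estriol that level was -1.079 (adjusted p = 0.0114). CDF4 and CDF5 belong to the cycling Dof factors, known for delaying photoperiodic flowering. With Dof2.2 the CDF4 signal stood at 4.29 and 3.7 under mock and 8.04 and 7.87 under estriol, compared with 6.23 and 5.99 under mock and 10.19 and 9.94 under estriol with PEAR2. The 2 responses of CDF4, 3.96 and 3.96, differed by 0.01 (95% interval -0.65 to 0.66). CDF5 rose by 1.3 and 3.0, and its difference of -1.7 ± 0.36 (adjusted p = 0.0504) was among those just outside the threshold. CDF5 passed after centring on the 75th percentile (adjusted p = 0.0432), without the genes of lowest signal (adjusted p = 0.039), with trended robust moderation (adjusted p = 0.0412), with array weights (adjusted p = 0.0294) and in a fit of the 8 arrays (adjusted p = 0.0185). DOF1.5 rose by 3.18 and 3.43, a difference of -0.26 (95% interval -0.88 to 0.37). DOF1.3 lost its call without Dof2.2 mock array 1, estriol array 1, estriol array 2 or any 1 PEAR2 array (adjusted p 0.0561 to 0.123) and with the within-line block (adjusted p = 0.0833).

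**Figure D4:**
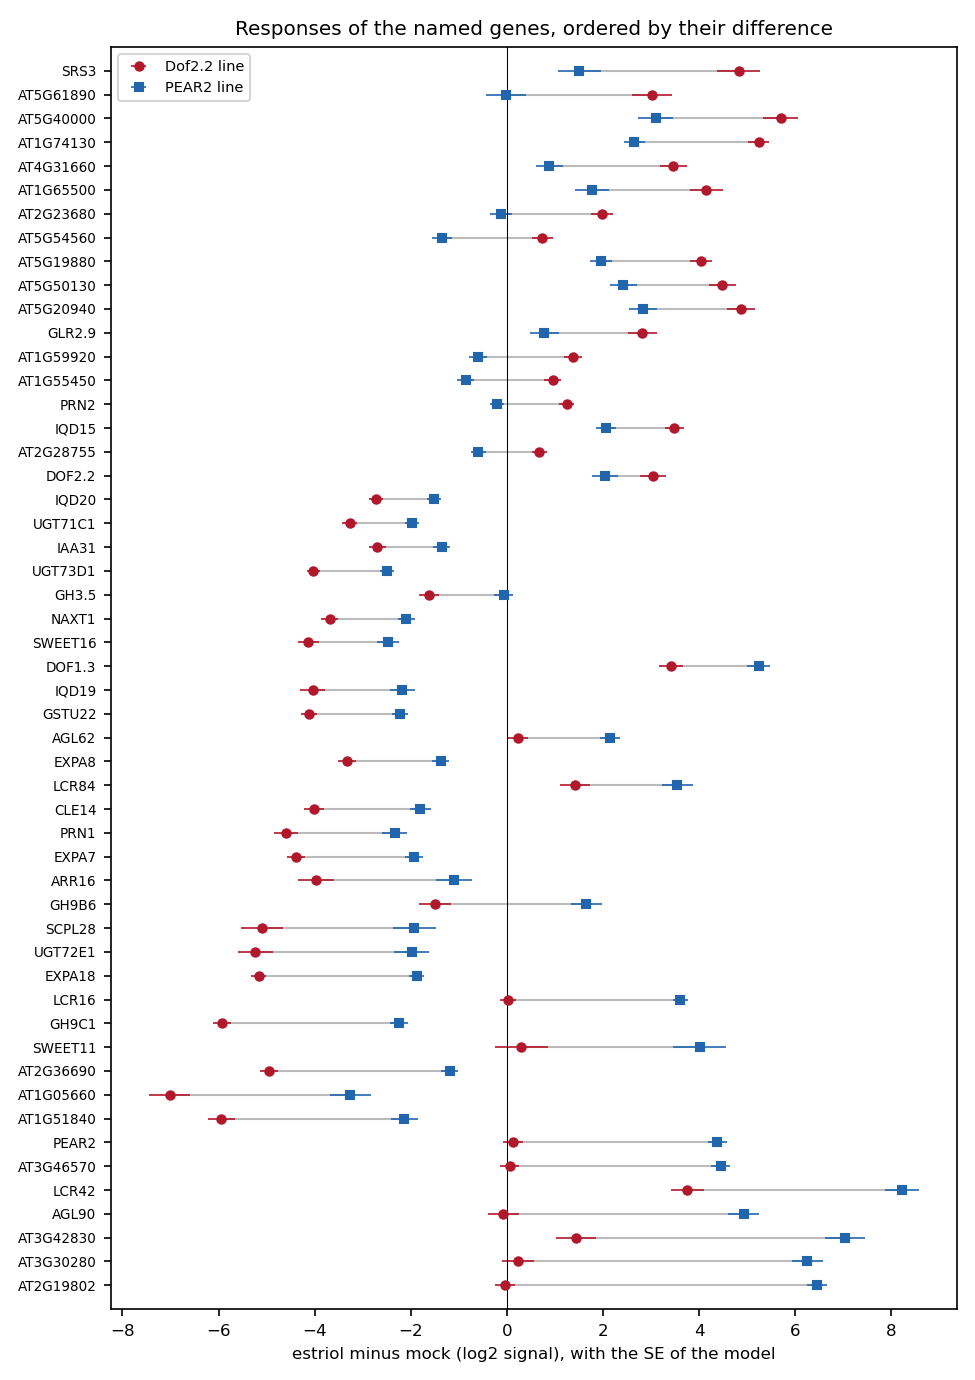
Responses (estriol minus mock, log2 signal) of the genes described, 1 row a gene in the order of the difference, in the Dof2.2 line (red circles) and the PEAR2 line (blue squares), with bars for the SE from the model. The gap between the markers is the difference of responses, from AT2G19802 at -6.49 to SRS3 at 3.32, and that of DOF2.2 (1.0) did not pass the threshold.

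On the higher side the largest difference was that of SRS3, a zinc-finger factor of the SHI-related family, whose members act in organ development and auxin synthesis. SRS3 read 3.89 and 3.18 under mock and 7.59 and 9.12 under estriol with Dof2.2, whereas with PEAR2 it read 4.04 and 4.28 under mock and 5.69 and 5.64 under estriol. It rose in both lines, and its responses were 4.82 and 1.51, a difference of 3.32 ± 0.63 (adjusted p = 0.0294). The 2 Dof2.2 estriol arrays differed more than those of the other groups, and the rise was larger than with PEAR2 on both. SHI, the other family member measured, had a difference of -0.21 (95% interval -0.73 to 0.32). With Dof2.2 the AT1G74130 signal stood at 2.43 and 2.23 under mock and 7.35 and 7.78 under estriol, compared with 3.73 and 3.63 under mock and 6.55 and 6.11 under estriol with PEAR2. AT1G74130 had a difference of 2.59 ± 0.3, with the smallest adjusted p of the larger higher differences (adjusted p = 0.00296). It kept its call without any 1 array, but its mock level was dim in both lines. GLR2.9, a glutamate receptor-like channel, rose with Dof2.2 (2.82) and had a response of 0.78 with PEAR2, a difference of 2.04 ± 0.43 (adjusted p = 0.0495), one of the calls nearest to the threshold. SRS3 lost its call without Dof2.2 mock array 2 or any 1 PEAR2 array (adjusted p 0.0849 to 0.111), in a fit of the 8 arrays (adjusted p = 0.0778) and with the within-line block (adjusted p = 0.117). GLR2.9 lost its call without Dof2.2 mock array 2, estriol array 2 or any 1 PEAR2 array (adjusted p 0.0555 to 0.197), in a fit of the 8 arrays (adjusted p = 0.111), with the replicate number as a block (adjusted p = 0.0733), with the within-line block (adjusted p = 0.159) and among all entries (adjusted p = 0.0523).

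The other higher genes of this size are known by locus only. AT5G40000, AT1G65500, AT5G19880, AT5G50130 and AT5G20940 rose in both lines, by 4.05 to 5.7 with Dof2.2 and by 1.77 to 3.1 with PEAR2. Their differences were 2.6 ± 0.52 (adjusted p = 0.0376), 2.38 ± 0.49 (adjusted p = 0.0453), 2.08 ± 0.32 (adjusted p = 0.0106), 2.06 ± 0.41 (adjusted p = 0.0379) and 2.05 ± 0.41 (adjusted p = 0.0401) in that order. AT5G50130 was dim in mock roots of both lines. AT4G31660 rose by 3.47 and 0.89, a difference of 2.58 ± 0.39 (adjusted p = 0.00891). It was dim in all groups but the Dof2.2 estriol one. AT5G61890 and AT2G23680 rose with Dof2.2 (3.02 and 1.99) and had responses of -0.03 and -0.12 with PEAR2. Their differences were 3.04 ± 0.59 (adjusted p = 0.0319) and 2.11 ± 0.32 (adjusted p = 0.0104). AT5G61890 was likewise dim in all groups but the Dof2.2 estriol one. After quantile normalization over all arrays, the Dof2.2 minus PEAR2 level of AT2G23680 was -1.119 in mock roots (adjusted p = 0.0224). On estriol it was 0.962 (adjusted p = 0.0161). AT5G40000 lost its call without any 1 Dof2.2 array, PEAR2 mock array 1, estriol array 1 or estriol array 2 (adjusted p 0.058 to 0.148), after quantile normalization (adjusted p = 0.0866) and with the within-line block (adjusted p = 0.0656). AT1G65500 lost its call without any 1 Dof2.2 array, PEAR2 mock array 2, estriol array 1 or estriol array 2 (adjusted p 0.0549 to 0.138), after quantile normalization (adjusted p = 0.0734), in a fit of the 8 arrays (adjusted p = 0.0609) and with the within-line block (adjusted p = 0.0731). AT5G19880 lost its call without PEAR2 mock array 1, mock array 2 or estriol array 2 (adjusted p 0.0506 to 0.0575). AT5G50130 lost its call without Dof2.2 mock array 2 or any 1 PEAR2 array (adjusted p 0.0851 to 0.147), in a fit of the 8 arrays (adjusted p = 0.113) and with the replicate number as a block (adjusted p = 0.0543). AT5G20940 lost its call without Dof2.2 mock array 2, estriol array 2 or any 1 PEAR2 array (adjusted p 0.0675 to 0.181), after quantile normalization (adjusted p = 0.0587), in a fit of the 8 arrays (adjusted p = 0.0997), with the replicate number as a block (adjusted p = 0.0508) and with the within-line block (adjusted p = 0.122). AT4G31660 lost its call without PEAR2 mock array 1 (adjusted p = 0.0517). AT5G61890 lost its call without any 1 Dof2.2 array, PEAR2 mock array 1, estriol array 1 or estriol array 2 (adjusted p 0.0592 to 0.127) and with the replicate number as a block (adjusted p = 0.051). AT2G23680 lost its call without PEAR2 mock array 1 or estriol array 2 (adjusted p 0.0572 to 0.0587).

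Besides GH9B6, 4 genes had opposite calls in the 2 lines, all rising with Dof2.2 and falling with PEAR2, and all are known by locus only. With Dof2.2 the AT1G55450 signal stood at 7.95 and 7.46 under mock and 8.66 and 8.65 under estriol, compared with 9.01 and 9.13 under mock and 8.12 and 8.3 under estriol with PEAR2. Its difference was 1.81 ± 0.26 (adjusted p = 0.00731). Mock arrays gave AT1G59920 signals of 3.89 and 3.83 with Dof2.2 and 5.49 and 5.25 with PEAR2, while estriol arrays gave 5.12 and 5.35 with Dof2.2 and 4.9 and 4.65 with PEAR2. The difference of AT1G59920 was 1.97 ± 0.26 (adjusted p = 0.00549), and its neighbour AT1G59930 was called on the same side. AT5G54560 went by 0.74 and -1.35, a difference of 2.09 ± 0.3 (adjusted p = 0.00709), and was dim in all groups but the Dof2.2 estriol one. AT2G28755 went by 0.67 and -0.6, a difference of 1.27 ± 0.22 (adjusted p = 0.019). AT2G28755 lost its call without Dof2.2 mock array 2, estriol array 1, estriol array 2, PEAR2 mock array 1 or estriol array 1 (adjusted p 0.052 to 0.102) and with the within-line block (adjusted p = 0.0641).

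For part of the shared response the 2 lines were within 2-fold of each other. Of 2614 genes that passed in both lines with 1 sign, 208 (7.96%) were called in the difference. For 1185 (45.3%; 693 that rose and 492 that fell) the 95% interval of the difference lay within -1 to 1, that is within 2-fold, and for the remaining 1221 the data settled neither. This limit is wide beside the responses themselves. Their medians were 1.19 and 1.01 for genes that rose in both lines and -1.85 and -1.33 for genes that fell. An interval within the limit therefore does not show equal responses. The highest mean responses within 2-fold were those of AT5G47150 (4.71 and 5.07), AT1G17830, AT5G53730, CDF4, AT3G03770 and AT4G34560. Mock arrays gave AT5G47150 signals of 2.11 and 2.23 with Dof2.2 and 3.1 and 3.04 with PEAR2, while estriol arrays gave 6.82 and 6.93 with Dof2.2 and 8.32 and 7.96 with PEAR2. Their differences ran from -0.37 for AT5G47150 to 0.19 for AT1G17830. The deepest falls within 2-fold were those of AT1G19900 (-4.93 and -4.43), AT5G47980, AT1G62190 and AT1G13510, and all 4 ended at a dim level in both lines, where a difference in depth may not be seen. The interval of AT1G19900, -0.999 to -0.001, left out 0. Responses of the 2 lines did not overlap for AT1G19900 and AT5G47150.

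To ask whether the lines differed before or after induction, all 12 arrays were quantile normalized together, a setting chosen after seeing the data. Of the 275 genes, 36 then differed between the lines in mock roots and 250 on estriol (6.3% and 18.3% of all genes did). For the 225 lower genes the median Dof2.2 minus PEAR2 level was 0.20 in mock and -1.67 on estriol. For the 50 higher genes it was -0.37 and 1.16. The estriol difference was the larger in size for 204 of the 225 and 39 of the 50. Exceptions at the mock stage included the PEAR2 gene, which stood 1.09 lower in mock roots of the Dof2.2 line than in those of the PEAR2 line (adjusted p = 0.0222). These level comparisons share arrays with the difference of responses and are no separate evidence for it.

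**Figure D5:**
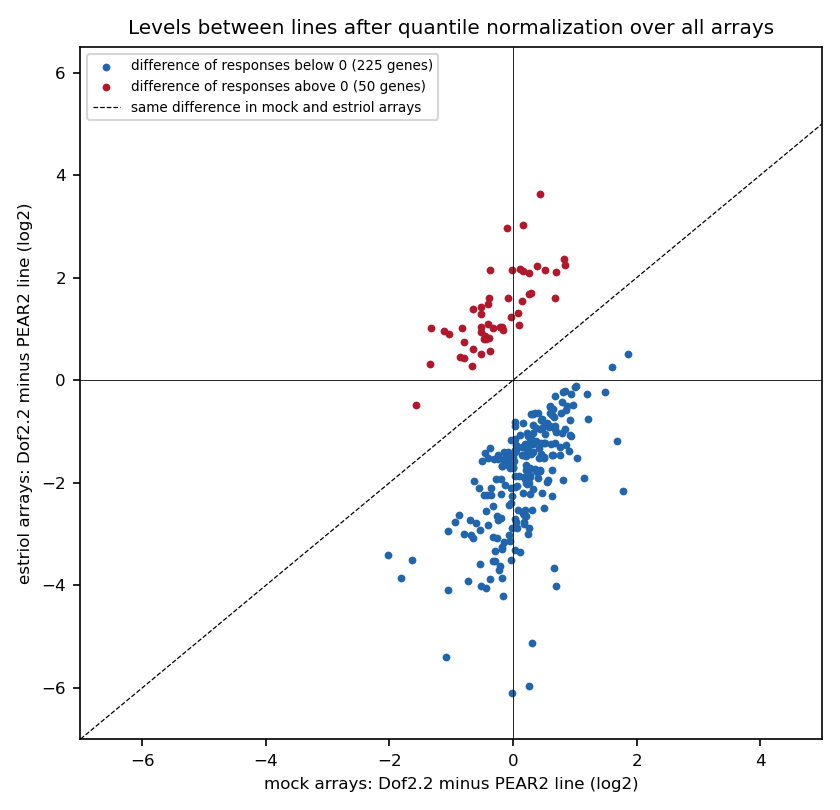
Each point is 1 of the 275 called genes after quantile normalization over all arrays, with the Dof2.2 minus PEAR2 level in mock arrays on the horizontal axis and in estriol arrays on the vertical axis (log2). Blue points (difference of responses below 0) lie mostly below 0 on the vertical axis and around 0 on the horizontal one, and red points (above 0) lie mostly above 0 on the vertical axis.

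The Dof1.1 line, in its other background, was set beside these classes as a description. Of the 225 lower genes its response was nearer to that of the Dof2.2 line in 165, and of the 50 higher genes in 26. Among the 167 called genes that fell in both lines it was nearer to Dof2.2 in 142 (median Dof1.1 response -3.49). Among the 25 that rose with PEAR2 alone it was nearer to Dof2.2 in 11 (median 2.36). EXPA18, for example, had a Dof1.1 response of -3.98 and GH9C1 one of -5.16, while GH9B6 had 5.17 and AGL90 had 6.43.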

How the data were processed

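Root RNA of 3 lines, each mock-treated or treated with estriol, was read on 12 one-colour biotin-labelled GeneChip arrays, 2 a group. The authors deposited 1 table of log2 signals with 2 decimals, made with RMA per the submitters' processing notes; neither its version nor scan batches nor the annotation's build is given in the sources used. RMA includes background correction and normalization, and array medians differed between lines, so values were used as deposited and compared within a line.

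Of 28583 entries, 16722 name exactly 1 gene by the platform annotation (16574 matched to RefSeq, assembly TAIR10.1, by Entrez identifier and 142 by name, 6 unmatched). For 148 genes with several entries the one of highest mean was kept, which left 16548 genes, 14761 of them known by locus only. Common names were given to some loci from general knowledge.

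limma 3.58.1 in R 4.3.3 fitted 6 group means to all 12 arrays with eBayes (6 residual and 3.94 prior degrees of freedom). The contrasts were both responses and their difference, adjusted by Benjamini-Hochberg over all genes at 0.05. Values after ± are standard errors of the model. The fits were checked on simulated data. Precision is limited by the number of arrays.

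Named were the 2 construct genes, the 12 highest and 12 lowest called differences whose responses did not overlap and that were not dim in all 4 groups, genes with opposite calls, called Dof and CLE genes and up to 4 called genes of each other list, and shared responders with intervals within -1 to 1 (6 highest, 4 lowest). The lists and this rule were chosen with earlier results of these data known. Replicate numbers were tested as pairs. Deviations from group means correlated at 0.17 (Dof2.2), 0.13 (PEAR2) and 0.32 (Dof1.1) within a line and at -0.08 to 0.11 between lines. Numbers were therefore taken to pair arrays within a line, though the labels state no shared batch. The main fit held no block, so its calls and adjusted p leave this pairing out. With the block within a line 229 genes were called, 171 of the 275 among them. The blocked value is given where it changes a call. Alternatives varied normalization, filtering, moderation, weights, arrays, blocks and entries. No sequences were used, and of gene positions only the order along a chromosome.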

Additional observations from a re-analysis of the deposited data

Results flagged for a closer look

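Every gene below passed the test of the difference of responses itself in the fit without a block. In all 275 genes did so, 50 higher and 225 lower with Dof2.2. Many of the calls listed below were lost in other settings, as given above. The paired fit of the 8 arrays called 36 genes, 0 of them higher with Dof2.2. Differences on the log2 scale of genes that rose less or not at all with Dof2.2, or rose only with PEAR2, were -6.49 for AT2G19802, -6.03 for AT3G30280, -5.6 for AT3G42830, -5.0 for AGL90, -4.46 for LCR42, -4.4 for AT3G46570, -4.25 for PEAR2, -3.72 for SWEET11, -3.59 for LCR16, -2.13 for LCR84, -1.92 for AGL62 and -1.82 for DOF1.3. GH9B6 went opposite ways, with -3.15.

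Differences of genes that fell further with Dof2.2, or fell past the threshold there alone, were -3.8 for AT1G51840, -3.77 for AT1G05660, -3.76 for AT2G36690, -3.68 for GH9C1, -3.29 for EXPA18, -3.26 for UGT72E1, -3.17 for SCPL28, -2.88 for ARR16, -2.45 for EXPA7, -2.27 for PRN1, -2.22 for CLE14, -1.94 for EXPA8, -1.9 for GSTU22, -1.86 for IQD19, -1.66 for SWEET16, -1.6 for NAXT1, -1.55 for GH3.5, -1.53 for UGT73D1, -1.34 for IAA31, -1.3 for UGT71C1 and -1.21 for IQD20. The falls of ARR16 and GH3.5 passed in the Dof2.2 line alone.

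Differences above 0 were 3.32 for SRS3, 3.04 for AT5G61890, 2.6 for AT5G40000, 2.59 for AT1G74130, 2.58 for AT4G31660, 2.38 for AT1G65500, 2.11 for AT2G23680, 2.09 for AT5G54560, 2.08 for AT5G19880, 2.06 for AT5G50130, 2.05 for AT5G20940, 2.04 for GLR2.9, 1.97 for AT1G59920, 1.81 for AT1G55450, 1.45 for PRN2, 1.42 for IQD15 and 1.27 for AT2G28755.

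Outside the genes tested, 11861 entries of the table have no gene name or name several genes. In a fit of all entries the difference passed for 213 of them (1.8%), 46 higher and 167 lower with Dof2.2. They are not named here.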

How the results depend on the processing

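The 275 genes called in the difference (50 higher, 225 lower) kept their sign in every alternative that tested them, 264 of them after genes under the lower quartile of mean signal were left out. Most alternatives could not have turned a sign, as said above. The calls numbered 198 after quantile normalization over all arrays (188 of the 275 among them), 293 after centring on the 75th percentile, 341 without those low-signal genes, 365 with trended robust moderation, 364 with array weights, 237 on the 8 arrays, 276 with the entry of largest variance, and 272 at least 2-fold. With the replicate number as a block they were 267, and with the replicate block within a line 229 (171 of the 275). With all entries tested they were 490 (97 higher, 393 lower), beside 8829 for the Dof2.2 response and 5621 for the PEAR2 response, since more features entered. With array weights the responses gave 4250 (Dof2.2) and 4469 (PEAR2) genes, which turned the order of the lines. At least 2-fold, they gave 2524 and 1780 genes. In limma on the 8 arrays with the replicate block within a line, chosen after seeing the data, 36 genes were called, 0 higher and 36 lower, with 2449 at an unadjusted p under 0.05. Without 1 array the calls ran from 111 to 355 (11 to 57 higher, 100 to 299 lower), the Dof2.2 response from 3441 to 4369 genes and the PEAR2 response from 1859 to 3184. The cause of these shifts was not tested. Over all alternatives, the single genes named or listed gave 8339 values on the same side of the threshold, 325 that lost and 38 that gained a call, and none with a turned sign. Those values include listed genes not called in the main fit, which had no call to lose. The losses come from the called genes alone and are not a share of all values. Signal over background could not be set per probe, so differences at dim levels are the least certain.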

Other observations

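Genes with a RefSeq name that were called in the difference and lie outside the naming rule were looked up after their values were seen. MT1C, a metallothionein, had responses of -2.94 with Dof2.2 and -1.24 with PEAR2, a difference of -1.7 ± 0.31 (adjusted p = 0.0257). COR47, a cold-induced dehydrin, fell by 2.29 and 1.18, a difference of -1.11 ± 0.19 (adjusted p = 0.0163). GSO1, a receptor kinase needed for an intact endodermal barrier, had responses of -2.4 and -0.81, a difference of -1.59 ± 0.33 (adjusted p = 0.0482). TET12, a tetraspanin, fell by 3.9 and 2.07, a difference of -1.83 ± 0.35 (adjusted p = 0.0319). All 4 belong to the genes that fell in both lines. MT1C lost its call without Dof2.2 mock array 1, mock array 2, estriol array 2 or any 1 PEAR2 array (adjusted p 0.0551 to 0.106). COR47 lost its call without Dof2.2 mock array 2, estriol array 2 or any 1 PEAR2 array (adjusted p 0.056 to 0.0859) and with the within-line block (adjusted p = 0.0514). GSO1 lost its call without Dof2.2 mock array 2, estriol array 1, estriol array 2 or any 1 PEAR2 array (adjusted p 0.0823 to 0.168), after quantile normalization (adjusted p = 0.0589), in a fit of the 8 arrays (adjusted p = 0.0762), with the replicate number as a block (adjusted p = 0.0664) and with the within-line block (adjusted p = 0.078). TET12 lost its call without Dof2.2 estriol array 1, estriol array 2 or any 1 PEAR2 array (adjusted p 0.0786 to 0.133), after quantile normalization (adjusted p = 0.0826), in a fit of the 8 arrays (adjusted p = 0.0848), with the replicate number as a block (adjusted p = 0.0517) and with the within-line block (adjusted p = 0.0502).

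M17 and bZIP48, the latter a bZIP transcription factor, rose with PEAR2 (2.9 and 3.09) and had responses of -0.005 and 0.59 with Dof2.2, differences of -2.9 ± 0.29 (adjusted p = 0.00135) and -2.51 ± 0.39 (adjusted p = 0.0112). M17 was dim in both Dof2.2 groups and already lower there in mock roots after quantile normalization (-1.05, adjusted p = 0.0185). bZIP48 was dim in both Dof2.2 groups and in PEAR2 mock roots. bZIP48 lost its call without PEAR2 mock array 2 or estriol array 2 (adjusted p 0.0555 to 0.0586) and with the within-line block (adjusted p = 0.0514).

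On the higher side WNK9, a kinase of the WNK family, had signals of 5.54 and 5.59 under mock and 7.22 and 7.41 under estriol with Dof2.2, whereas with PEAR2 they were 6.0 and 6.14 under mock and 5.84 and 6.35 under estriol. Its difference was 1.73 ± 0.27 (adjusted p = 0.0113). TBL45, a trichome birefringence-like gene, had responses of 1.64 and 0.3 (difference 1.35 ± 0.27, adjusted p = 0.0389), and SETH6 had 1.51 and 0.19 (difference 1.33 ± 0.2, adjusted p = 0.00859). WNK9 lost its call without PEAR2 mock array 2 (adjusted p = 0.0578). TBL45 lost its call without Dof2.2 mock array 1, mock array 2, estriol array 2 or any 1 PEAR2 array (adjusted p 0.0804 to 0.156) and after quantile normalization (adjusted p = 0.052). SETH6 lost its call without PEAR2 mock array 1 (adjusted p = 0.058).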
